A study of Mus musculus with 12 samples.

Results

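The DEAD and DEAH box RNA helicases were followed across gastrocnemius muscle of 12 mice. The members are the genes whose symbol in the array's annotation starts with Ddx or Dhx and a digit, which gave 46 genes (30 Ddx and 16 Dhx) on 95 probes of the 45281 on the array. A probe was tested where its signal was above background (detection p below 0.05) on 6 arrays or more out of 12. This left 49 probes of 35 member genes among 15570 probes tested. Of the other member probes, 17 were detected on 1 to 5 arrays and 29 on 0 arrays, and 11 member genes had no tested probe.

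DEAD box and DEAH box proteins are enzymes that use ATP to open short RNA duplexes or to pull RNA and protein apart. They are named after amino acids of the motif that binds and splits ATP. DEAD box members mostly pry apart a duplex locally, whereas DEAH box members move along a strand. Between them they act at nearly every step in the life of an RNA, including splicing, export, ribosome building, the start of translation, storage in cytoplasmic granules and decay. Skeletal muscle holds large amounts of long-lived messenger RNA for contractile proteins and builds ribosomes when it grows.

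All mice were male C57BL/6J animals aged 10 to 12 weeks, weighing 22 to 26 g and carrying an implanted temperature transponder. All were exposed to heat in a chamber brought to 39.5 °C for at most 3 h, and muscle was taken within about a day afterwards. From the core temperature during the test 6 mice were labelled heat tolerant (TOL) and 6 heat intolerant (INT), and both groups hold mice numbered 3, 4, 5, 7, 9 and 11. None of these 12 mice was left unheated, so a difference between the labels is between animals sorted by how they bore heat and cannot be read as a change caused by heat. Mice of middling tolerance were tested in the study but are not analysed here.

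Each mouse had 1 array of the Illumina MouseWG-6 v2 BeadChip, with a median raw signal of 71.5 to 74.0 on TOL and 72.9 to 73.8 on INT arrays and 15179 to 16769 against 15337 to 17017 detected probes. TOL mouse 11 and INT mouse 3 correlated least with the other arrays (mean r of 0.973 and 0.981). All 10 genes listed as defining skeletal muscle were detected on all 12 arrays, and their summed linear level ran from 104100 to 111400 in TOL and from 102900 to 113700 in INT mice. All 14 probes of the 9 slow-twitch fibre genes had negative log2 fold changes (median -0.54), 8 of them with a p of 0.05 or less before adjustment and 0 after it, with a summed level of 5745 to 18220 in TOL and 12020 to 35140 in INT mice. Of 8 smooth muscle and pericyte probes 5 were negative, 2 of them at that unadjusted threshold, with sums of 881.8 to 1943 in TOL and 1546 to 2499 in INT mice. Of the 23 muscle-defining probes 5 fell at the adjusted threshold (4 of Ttn, 1 of Neb), against 0.790% of all tested probes. Other Ttn probes lay between -0.69 and 0.053. Actn3 (0.35) and Tnnt3 (0.22) each had 1 probe higher at a p of 0.05 or less before adjustment. Of 9 fibroblast and tenocyte probes 7 were positive, with 2 of Dcn (0.26 and 0.25) higher at that threshold. Fibroblast, adipocyte, endothelial, erythrocyte, macrophage, neutrophil and Schwann cell probes gave 0 calls after adjustment. The part that these marker differences have in the helicase values was not tested, and in bulk muscle fewer cells of a type and less RNA per cell cannot be told apart.

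Across the family most probes differed little between the labels, and the few that differed clearly were lower in TOL mice. Values below are log2 intensities after background correction and quantile normalization, and a log2 fold change is TOL minus INT, so that a negative value is lower in TOL. At a Benjamini-Hochberg adjusted p under 0.05 (limma, over all 15570 probes), 3 of the 49 member probes fell, 1 each of Ddx6, Ddx21 and Ddx10 (6.12%, against 0.790% of all tested probes), and 0 rose (against 0.0385%). Ddx6 had been noted as lower in TOL mice before the family was chosen, so that share is partly set by the choice. The Ddx10 probe passed the detection filter through its 6 INT arrays. Among probes detected on all 12 arrays 2 of 40 members fell, beside 74 of 11843 over the array. At a nominal p of 0.05 or less (before adjustment), 7 member probes were lower (14.3%, against 5.30% of all) and 1 was higher (2.04%, against 4.61%). With arrays scaled by their medians in place of quantile normalization these counts were 8 and 0, beside 1635 and 193 over all probes, where quantile normalization gave 825 and 718.

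The log2 fold change was below 0 for 29 member probes (59.2%, against 49.5% of all tested probes), and the median was -0.017 over members and 0.0016 over all probes. The count below 0 was 40 with median scaling, which also moved the median of all probes to -0.067, and 27 to 34 without 1 mouse, highest without TOL mouse 5. It lay within 0.1 of 0 for 32 members (65.3%, against 58.2%) and exceeded 1.5-fold for 2 (4.08%, against 0.88%). The spread between mice of 1 label was near that of the array, with a median within-group SD of 0.163 over members and 0.169 over all probes. The background step adds an offset of 16 to every signal, which shrinks the fold changes of dim probes.

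**Figure D1:**
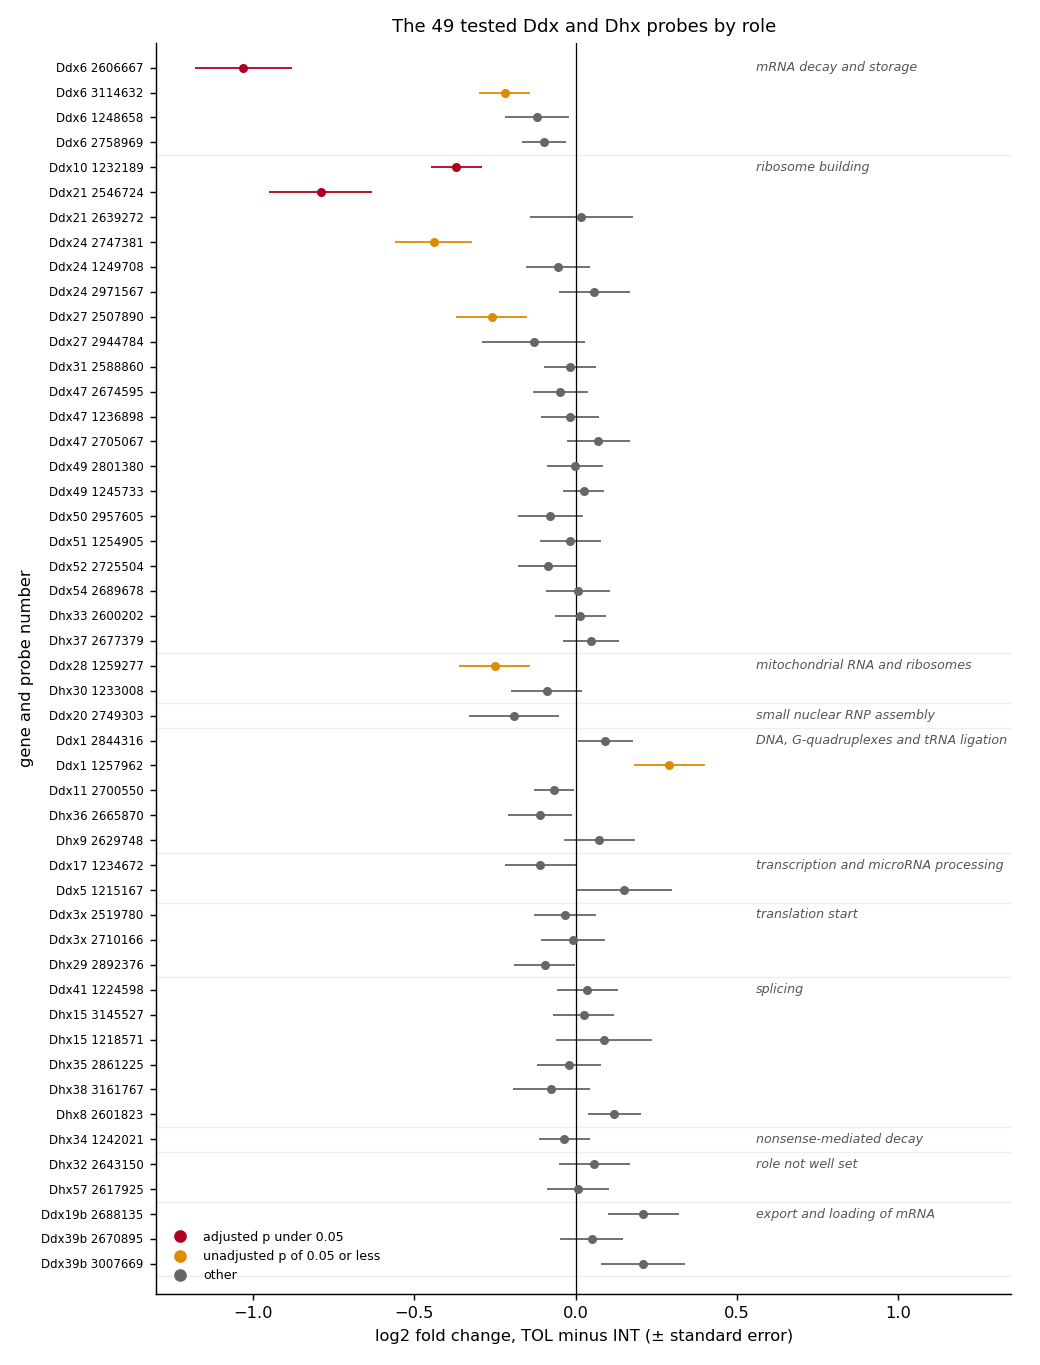
Log2 fold change (TOL minus INT, with its standard error as a bar) of each of the 49 tested Ddx and Dhx probes, grouped by the role of the gene, with 6 mice per label. Ddx6 (-1.03), Ddx21 (-0.79) and Ddx10 (-0.37) each have 1 probe at an adjusted p under 0.05, while other probes of Ddx6 and Ddx21 lie nearer 0.

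Ddx6 gave the largest difference of any member probe. Its product sits in cytoplasmic P-bodies, where it represses translation of messenger RNA, helps the decapping enzyme and is the partner through which the CCR4-NOT complex silences microRNA targets. Probe ILMN_2606667 had log2 intensities of 6.41, 7.17, 6.91, 6.79, 6.22 and 6.20 in TOL mice 3, 4, 5, 7, 9 and 11, against 7.57, 7.58, 7.68, 7.75, 7.60 and 7.67 in INT mice with the same numbers. Every TOL mouse lay below every INT mouse, and the INT mice were tightly grouped while the TOL mice were spread out, with mice 9 and 11 lowest and mouse 4 highest. The means were 6.62 ± 0.40 in TOL and 7.64 ± 0.07 in INT mice (SD, n = 6 each). The raw signals kept this separation, from 120.0 to 192.5 (median 147.7) in TOL and from 242.8 to 286.9 (median 264.0) in INT mice. The probe fell by 1.03 (SE 0.15) on the log2 scale, a 2.04-fold difference, at a limma adjusted p of 0.0021. The exact two-sided permutation p was 0.00216, the smallest that the 924 splits of 6 against 6 mice allow. This was the only member probe whose labels did not overlap (2.04% of members, against 0.809% of all tested probes), and 0 members had every TOL mouse above every INT mouse (against 0.276%). It kept an adjusted p under 0.05 in limma without any 1 of the 12 mice (from -1.14 to -0.94). Ddx6 had been noted as lower in TOL mice before the family was chosen. Its rank and p-values therefore partly restate that earlier reading of the same mice.

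Of the other 4 Ddx6 probes 3 were tested, and 0 of them reached the adjusted threshold. Probe ILMN_1248658, detected on all 12 arrays, had 6.55, 6.86, 6.79, 6.85, 6.90 and 6.86 in TOL mice, against 7.12, 6.86, 6.79, 6.85, 6.73 and 7.16 in INT mice, in the same order of mouse numbers. Here the labels overlapped almost wholly, with TOL mouse 3 lowest and INT mice 3 and 11 highest. Its log2 fold change was -0.12 (SE 0.10), at a limma adjusted p of 0.765. Probe ILMN_3114632 was near background, detected on 5 TOL and 6 INT arrays, with 4.28 to 4.62 in TOL and 4.41 to 4.79 in INT mice and a log2 fold change of -0.22 (SE 0.079, nominal p of 0.0126, limma adjusted p of 0.335). Probe ILMN_2758969 only just passed the filter, detected on 2 TOL and 4 INT arrays, with a log2 fold change of -0.098 (SE 0.068, limma adjusted p of 0.693). The fifth probe, ILMN_3040041, was detected on 3 arrays and was not tested.

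The leading Ddx6 probe was also set against the others mouse by mouse. The log2 value of ILMN_2606667 minus that of ILMN_1248658 ran from -0.68 to 0.31 in TOL and from 0.45 to 0.90 in INT mice, a difference between the labels of -0.91 (SE 0.18). The leading probe was chosen because it was called in these same mice, so this value mostly restates its fall of 1.03 on the log2 scale and is given with no test. The probes ILMN_2758969 and ILMN_3114632 lay near background. Over the other processing settings their log2 fold changes ran from -0.519 to -0.0307 and from -0.763 to -0.0681, with 0 calls. Their differences from the leading probe are listed only under the processing settings, and no conclusion was drawn from them. The transcripts that each probe reads were not analysed here.

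**Figure D2:**
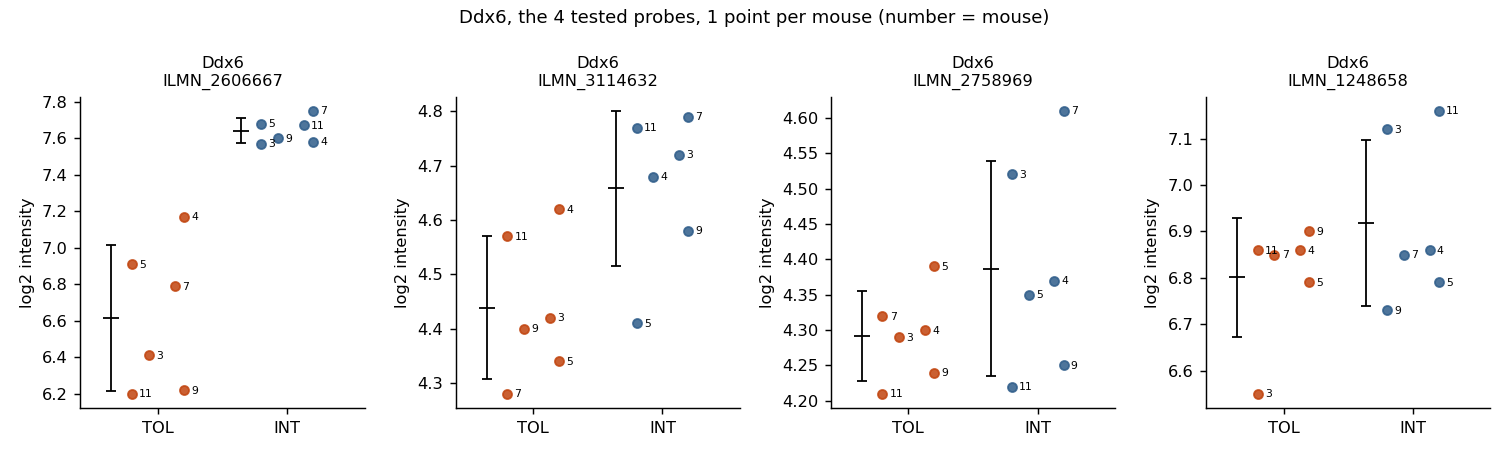
Log2 intensity of the 4 tested Ddx6 probes in each mouse (points, with the mouse number), TOL left of INT, with the group mean and SD (n = 6) as a bar; each panel has its own axis, which does not start at 0. In ILMN_2606667 all TOL mice (6.20 to 7.17) lie below all INT mice (7.57 to 7.75), and in the other panels the labels overlap.

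The partners of Ddx6 were read from lists of genes. Of 26 probes for 17 tested genes of P-bodies and decapping, 17 had negative and 9 positive log2 fold changes, with a median of -0.078 against 0.0016 over all probes, and 0 passed the adjusted threshold. At a nominal p of 0.05 or less 3 were lower and 1 higher. These were single probes of Lsm3 (-0.29) and Lsm2 (0.20, with -0.086 in its other probe), subunits of the ring that binds trimmed messages, Edc4 (-0.27), a scaffold of the decapping complex, and Xrn1 (-0.21), the exonuclease that degrades decapped RNA, with limma adjusted p from 0.201 for Lsm2 to 0.455 for Xrn1. The named Lsm2 and Xrn1 probes were dim, with means of 4.55 and 4.28 in TOL and 4.35 and 4.49 in INT mice. Dcp2, the decapping enzyme itself, had no tested probe.

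The CCR4-NOT complex, which shortens poly(A) tails and recruits Ddx6, had 20 tested probes for 9 genes. Of the probes 15 were negative (against 49.5% of all tested probes) and 2 fell at the adjusted threshold (against 0.790%). Cnot11 probe ILMN_2616638 lay at 5.04 to 5.49 in TOL and 5.60 to 5.98 in INT mice, without overlap (-0.48, SE 0.10, limma adjusted p of 0.0274). Every TOL mouse lay below every INT mouse in 0.809% of all tested probes. Cnot4, a ubiquitin ligase that binds the complex, fell in ILMN_2657911 (-0.71, SE 0.16, limma adjusted p of 0.0434), where TOL mice had 6.83 to 7.38 and INT mice 7.28 to 8.24. As for Ddx6, the other probes of both genes did not pass, at -0.15 for Cnot11 and at -0.13 and 0.042 for Cnot4. Leaving out 1 mouse ended the call of Cnot11 in 7 of 12 cases (TOL mice 3, 4, 9 and 11 and INT mice 4, 9 and 11, limma adjusted p up to 0.076) and that of Cnot4 in 10 (up to 0.124), all but those without INT mouse 3 or TOL mouse 11 for Cnot4. The median of the list was -0.07, against 0.0016 over all probes. Single probes of the deadenylase Cnot7 and of Cnot2 stood at 0.23 and -0.17 (limma adjusted p of 0.189 and 0.502). That Cnot7 probe was dim (means of 4.47 in TOL and 4.24 in INT mice), and the brighter Cnot7 probe was at -0.12. The other Cnot2 probes lay between -0.14 and 0.032. Among 24 probes for microRNA processing and silencing 15 were negative and 0 passed, with 1 probe each of Dicer1 (-0.25) and Ago3 (-0.21) at a nominal p of 0.05 or less. These Dicer1 and Ago3 probes were dim too, with means of 4.4 and 4.38 in TOL and 4.65 and 4.6 in INT mice. The other Dicer1 probes were at 0.18 and 0.12, and the other Ago3 probes at -0.097 and -0.094.

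The other 2 called helicases, Ddx21 and Ddx10, belong to the largest role in the family. Ribosome building held 15 member genes, of which 13 were tested on 20 probes, with 13 negative and 7 positive log2 fold changes between -0.79 and 0.07 (median -0.017). Ddx21 is a nucleolar helicase that couples transcription of ribosomal RNA to its processing, and Ddx10 is a nucleolar helicase whose yeast counterpart Dbp4 is needed to release U14 and make the small subunit. The 250 bases before the start site of both genes are shown because they are promoters of called members, taken from RefSeq (GRCm38.p6), where Ddx10 and Ddx21 were matched and Ddx6 was not. Both lie on the minus strand, Ddx10 at chr9:53248113-53248362 and Ddx21 at chr10:62602299-62602548. Capitals mark CGGAAG, a core recognised by ETS family factors, on either strand.
Ddx10: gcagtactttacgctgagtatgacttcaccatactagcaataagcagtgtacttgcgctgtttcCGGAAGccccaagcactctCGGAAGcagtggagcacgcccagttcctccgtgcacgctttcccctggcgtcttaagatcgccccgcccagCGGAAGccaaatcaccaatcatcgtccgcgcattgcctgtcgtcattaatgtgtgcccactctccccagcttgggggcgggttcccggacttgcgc
Ddx21: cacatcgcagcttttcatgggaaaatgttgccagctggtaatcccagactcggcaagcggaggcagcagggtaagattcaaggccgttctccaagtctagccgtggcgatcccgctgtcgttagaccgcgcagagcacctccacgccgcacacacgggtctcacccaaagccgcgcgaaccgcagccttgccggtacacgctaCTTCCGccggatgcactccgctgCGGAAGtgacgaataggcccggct
The Ddx10 window held 3 copies and the Ddx21 window 1 in each orientation, with GC contents of 58.0% and 61.6%. A match is a description of letters and not of binding.

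Ddx21 probe ILMN_2546724 had 5.51, 6.05, 5.98, 5.66, 5.84 and 5.54 in TOL mice 3, 4, 5, 7, 9 and 11, against 5.89, 6.61, 6.68, 6.87, 6.86 and 6.42 in INT mice with those numbers. The labels overlapped through INT mouse 3 alone, which lay among the TOL mice. The means were 5.76 ± 0.23 in TOL and 6.56 ± 0.37 in INT mice (SD, n = 6 each), and the probe fell by 0.79 (SE 0.16) at a limma adjusted p of 0.0185. The second Ddx21 probe, ILMN_2639272, did not show this, with 5.57, 5.18, 5.73, 5.56, 5.59 and 5.24 in TOL mice, against 6.03, 5.09, 5.26, 5.07, 5.90 and 5.41 in INT mice. In it INT mice 3 and 9 were highest and INT mice 4 and 7 lowest, with the TOL mice between them. Its log2 fold change was 0.018 (SE 0.16, limma adjusted p of 0.986), and -0.061 with median scaling. Per mouse the first probe minus the second differed between the labels by -0.81 (SE 0.31), with overlap, a value given with no test since the first probe was chosen for its call. Without TOL mouse 3, INT mouse 5, INT mouse 7 or INT mouse 9 the call of the first probe was lost (limma adjusted p of 0.0598, 0.0539, 0.0596 and 0.0518).

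Ddx10 was a dim gene, and its 1 tested probe was detected on 3 TOL and 6 INT arrays. The INT arrays, where it was higher, thus carried it past the filter. ILMN_1232189 had 4.29, 4.45, 4.48, 4.50, 4.32 and 4.24 in TOL mice 3, 4, 5, 7, 9 and 11, against 4.50, 4.74, 4.93, 4.86, 4.82 and 4.63 in INT mice. The labels met only at TOL mouse 7 and INT mouse 3, and all other INT mice were above all TOL mice. The probe fell by 0.37 (SE 0.079) at a limma adjusted p of 0.0344, with means of 4.38 ± 0.11 in TOL and 4.75 ± 0.16 in INT mice (SD, n = 6 each). In the authors' processed values, without the offset, the log2 fold change was -1.28 and the limma adjusted p 0.0726. The call held without TOL mouse 5, TOL mouse 7, INT mouse 3 or INT mouse 11 and was lost without each of the other 8 mice (limma adjusted p up to 0.0981). A second probe, ILMN_1228007, was detected on 0 TOL and 5 INT arrays and lay just outside the filter, with means of 4.16 in TOL and 4.40 in INT mice.

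Ddx24, a nucleolar helicase whose yeast counterpart Mak5 acts in large subunit assembly, came next. Probe ILMN_2747381 had 7.0, 7.23, 7.42, 6.98, 7.17 and 7.31 in TOL mice, against 7.17, 7.69, 7.73, 7.71, 7.83 and 7.60 in INT mice, in the order of mouse numbers above. All INT mice but mouse 3 were above all TOL mice. The log2 fold change was -0.44 (SE 0.12, nominal p of 0.00161, limma adjusted p of 0.120), and without INT mouse 3 it was -0.53 with an adjusted p of 0.0105. The other Ddx24 probes, ILMN_1249708 and ILMN_2971567, were at -0.055 and 0.057 (limma adjusted p of 0.907 and 0.913). INT mouse 3 thus had the lowest INT value in the leading probes of Ddx21, Ddx10 and Ddx24. In that of Ddx6 it was nearly level with INT mouse 4 (7.57 and 7.58).

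**Figure D3:**
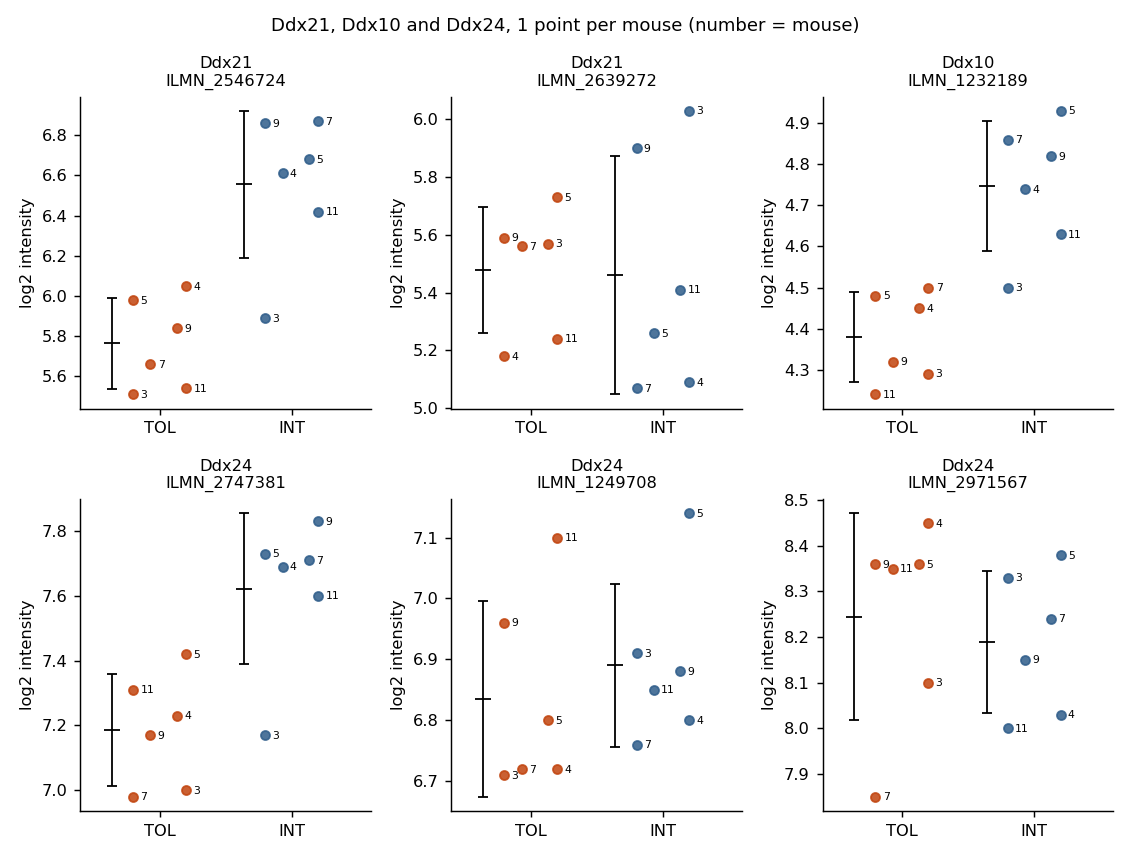
Log2 intensity of the tested probes of Ddx21, Ddx10 and Ddx24 in each mouse (points, with the mouse number), TOL left of INT, with the group mean and SD (n = 6) as a bar; each panel has its own axis, which does not start at 0. In ILMN_2546724, ILMN_1232189 and ILMN_2747381 only INT mouse 3 lies within the TOL range, at 5.89, 4.50 and 7.17, while the other Ddx21 and Ddx24 probes overlap widely.

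The remaining ribosome builders had smaller differences. Ddx27, which acts in processing of the large subunit RNA, was at -0.26 in ILMN_2507890 (SE 0.11, nominal p of 0.0344, limma adjusted p of 0.459), where TOL mice lay between 5.35 and 5.74 and INT mice between 5.52 and 6.16. Its other tested probe, ILMN_2944784, was among the 5 most variable member probes over the 12 mice (SD 0.307). It had 5.82 to 6.26 in TOL mice and 5.66 to 6.67 in INT mice, so that the INT mice held both its lowest and its highest values, and its log2 fold change was -0.13 (SE 0.16). Ddx47, a helicase of small subunit processing, had 3 tested probes at -0.047, -0.017 and 0.07. Ddx31, Ddx49, Ddx50, Ddx51, Ddx52, Ddx54, Dhx33 and Dhx37 lay between -0.087 and 0.047, each with a nominal p of 0.352 or more. Among 23 probes of other ribosome biogenesis factors the median was -0.053 and 0 passed, with Nop58 (-0.45), a core protein of box C/D particles, Tsr1 (0.29) and 1 probe of Nop10 (0.25, with -0.085 in the other) at a nominal p of 0.05 or less.

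Mitochondrial members and Ddx20 were lower on average without passing the adjusted test. Ddx28, which acts in assembly of the mitochondrial ribosome, had 5.75, 5.73, 5.76, 5.65, 5.51 and 5.60 in TOL mice, against 5.94, 5.70, 5.98, 5.69, 6.26 and 5.92 in INT mice. INT mice 4 and 7 lay within the TOL range, and INT mouse 9 was highest. The log2 fold change was -0.25 (SE 0.11, nominal p of 0.0314, limma adjusted p of 0.447). Dhx30, which also acts in mitochondrial ribosome assembly, was at -0.089. Ddx20, the Gemin3 subunit of the SMN complex that loads Sm proteins onto small nuclear RNA, was at -0.19 (SE 0.14). Of 9 probes of that complex 6 were negative and 0 passed, with both probes of its partner Gemin4 (-0.36 and -0.28) at a nominal p of 0.05 or less.

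Few member probes were higher in TOL mice at a nominal p of 0.05 or less. Ddx1, a subunit of the tRNA ligase complex that also acts at DNA breaks, was the 1 member probe higher at a nominal p of 0.05 or less. ILMN_1257962 had 7.94, 7.77, 7.75, 7.64, 8.24 and 8.11 in TOL mice, against 7.69, 7.49, 7.70, 7.58, 7.78 and 7.45 in INT mice. TOL mice 3, 9 and 11 were above all INT mice, and the rest overlapped. The log2 fold change was 0.29 (SE 0.11, nominal p of 0.0167, limma adjusted p of 0.366), and 0.092 in the other Ddx1 probe. The helicases Dhx9, Dhx36 and Ddx11, which unwind G-quadruplexes, DNA and structured RNA, were at 0.074, -0.11 and -0.066.

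All 3 probes of members that export and load messenger RNA were positive. Ddx19b, which strips proteins from messages at the nuclear pore, was at 0.21 (SE 0.11, limma adjusted p of 0.545), with 4.81 to 5.28 in TOL and 4.52 to 5.10 in INT mice. Ddx39b, the UAP56 helicase that loads export adaptors, was at 0.21 (SE 0.13) and 0.05 (SE 0.098) in its 2 probes. Both genes have near-identical copies, Ddx19a and Ddx39a, and signal that such copies share cannot be told apart here. Of 17 probes on the mRNA export list 9 were negative, 8 positive and 0 passed. Thoc2, a subunit of the THO complex that works with Ddx39b, was at -0.50 (SE 0.11, limma adjusted p of 0.0547).

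Splicing helicases lay close to 0 in 6 probes of 5 genes, between -0.075 for Dhx38 and 0.12 for Dhx8, with Dhx15, Ddx41 and Dhx35 between them. Dhx8, Dhx15 and Dhx38 remodel the spliceosome at message release, disassembly and the catalytic steps. Of 33 probes of spliceosome core genes 18 were negative and 0 passed, with 1 probe each of Snrnp70 (-0.26), Eftud2 (-0.25) and Cdc5l (-0.25) at a nominal p of 0.05 or less. Their other probes were at -0.16 for Snrnp70, -0.12 and -0.081 for Eftud2 and 0.029 for Cdc5l. Ddx3x and Dhx29, which help the small ribosomal subunit scan structured leaders, were at -0.034, -0.0077 and -0.096 in 3 probes. Ddx5 and Ddx17, paired coregulators of transcription and microRNA processing with known roles in muscle differentiation, were at 0.15 (SE 0.15) and -0.11 (SE 0.11). Ddx5 was lowest in INT mouse 3, at 4.24, against 4.69 in the next mouse of that label, while TOL mice had 4.66 to 5.33. Dhx34, a factor of nonsense-mediated decay, was at -0.035, and Dhx32 and Dhx57, whose roles are less settled, were at 0.058 and 0.0071.

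RNA helicases named outside the Ddx and Dhx series gave 22 tested probes of 11 genes. Of the probes 14 were negative (against 49.5% of all tested probes) and 1 fell at the adjusted threshold (against 0.790%). This was Upf1, the helicase of nonsense-mediated decay, in ILMN_2604108, with 4.42 to 4.70 in TOL and 4.74 to 5.14 in INT mice (-0.42, SE 0.082, limma adjusted p of 0.018). The other Upf1 probes were at -0.16 and 0.03. In ILMN_2604108 the labels did not overlap, as in 0.809% of all tested probes in this direction. Its call was lost without TOL mouse 3, TOL mouse 9, INT mouse 5 or INT mouse 7 (limma adjusted p up to 0.0549). Of Helz (-0.33) and the translation initiation helicases Eif4a1 (-0.24) and Eif4a2 (-0.23), 1 probe each had a nominal p of 0.05 or less (limma adjusted p of 0.384, 0.461 and 0.481). The other probes were at -0.17 to -0.049 for Helz, -0.041 for Eif4a1 and 0.064 and 0.13 for Eif4a2. The median of this list was -0.045, against 0.0016 over all probes. Of 9 probes for the exon junction complex and nonsense-mediated decay 3 were negative and 0 passed, with Smg1 (-0.30) and Casc3 (-0.26) at a nominal p of 0.05 or less.

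Members without a tested probe were Ddx4, Ddx25, Ddx39a, Ddx42, Ddx55, Ddx56, Ddx58, Ddx59, Dhx16, Dhx40 and Dhx58. Ddx58 (RIG-I) and Dhx58 (LGP2), sensors of viral RNA, were near background in both labels, and the brightest raw Ddx58 signal was 76.5 in TOL and 76.0 in INT mice. Of 13 probes for genes of antiviral RNA sensing 8 were negative, 5 positive and 0 had a nominal p of 0.05 or less. The germ cell helicase Ddx4 (Vasa) had raw signals of 67.2 to 73.7 in TOL and 66.4 to 75.0 in INT mice over its 3 probes. At the edge of the filter, probes detected on 6 arrays were ILMN_2758969 of Ddx6, ILMN_2700550 of Ddx11 (-0.066) and ILMN_1245733 of Ddx49 (0.025), and ILMN_1228007 of Ddx10 was the only one detected on 5. A dim probe is a limit of the array and does not show that the gene is silent.

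How close the probes of 1 gene lie says little about their agreement, since 85.7% of all tested probes lay within 0.2 of 0. Of the 10 member genes with several tested probes, 6 had log2 fold changes of 1 sign in all of them. The gap between the highest and lowest probe was under 0.2 in 6 genes, with a median of 0.15, and over 0.3 in 3, Ddx6 (0.93), Ddx21 (0.81) and Ddx24 (0.50). In each of these 3 genes 1 probe stood low and the others lay nearer 0. The 25 other tested genes had 1 tested probe each, so that no second reading exists for Ddx10, Ddx28 or Ddx20 in these tests.

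**Figure D4:**
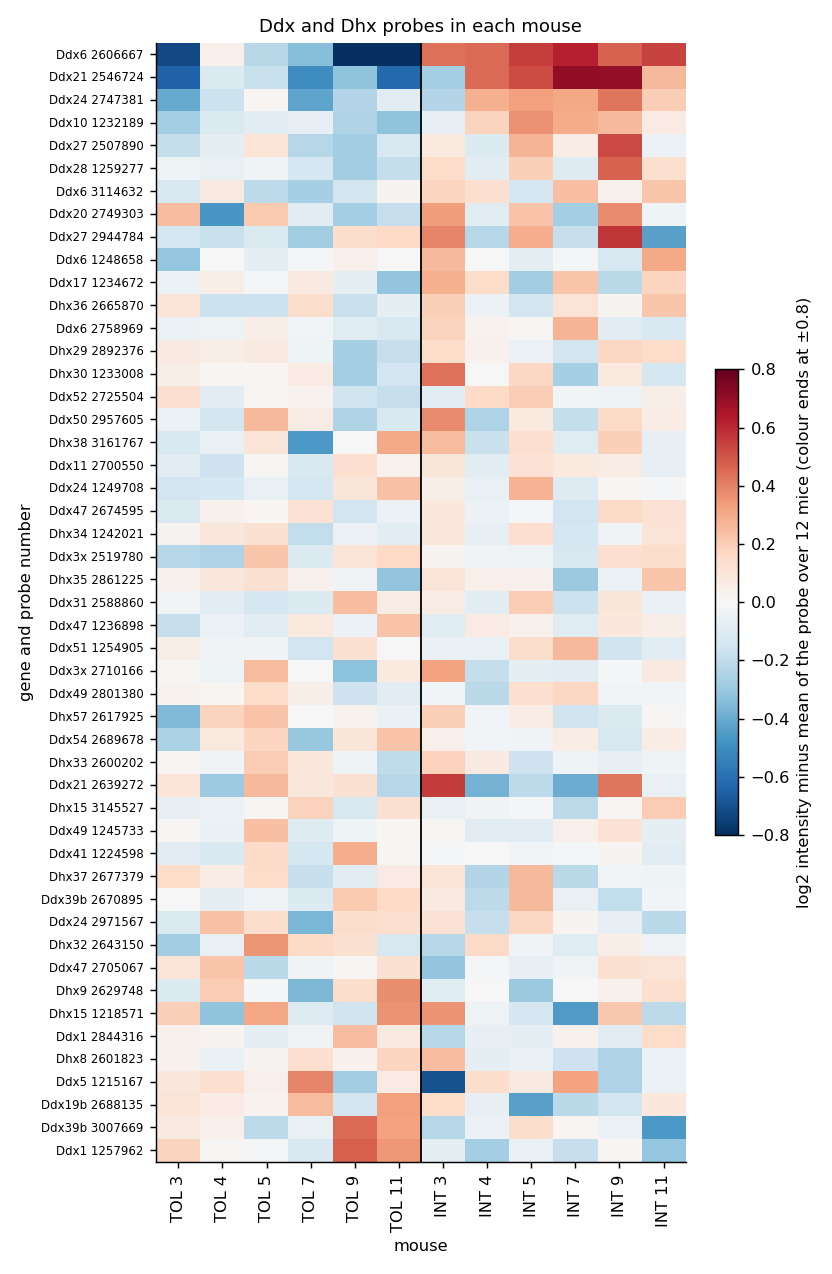
Log2 intensity of each of the 49 tested Ddx and Dhx probes minus its mean over the 12 mice (colour, ending at ±0.8), with TOL mice left of the black line and INT mice right of it and probes ordered by log2 fold change from the most negative. The top 4 probes are blue in every TOL mouse, or close to white for TOL mouse 4 in Ddx6 and TOL mouse 5 in Ddx24, INT mouse 3 is pale or blue in the Ddx21, Ddx24 and Ddx10 probes at the top, and further down both labels mix colours.

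Mouse by mouse the family's median ranged more widely than that of all probes. The median deviation of the 49 probes from their 12-mouse means lay between -0.061 and 0.02 in TOL and between -0.063 and 0.094 in INT mice. Over all tested probes, a median of far more values, it lay between -0.017 and 0.0053. Within INT, mice 3, 5, 9 and 11 stood at 0.094, 0.046, 0.02 and 0.012, and mice 4 and 7 at -0.046 and -0.063. This order was read from the values and was not tested. TOL mouse 7 was the lowest of the 12 mice for 9 member probes, TOL mice 9 and 11 for 7 each, TOL mouse 3 for 6, TOL mouse 4 for 3 and TOL mouse 5 for 0, against 1 to 4 in INT mice. TOL mouse 9 was also the highest of the 12 for 6 probes, TOL mice 5 and 11 for 5 each, and TOL mice 4, 7 and 3 for 2, 1 and 0, against 0 to 7 in INT mice. The same counts over all tested probes were not made. The most variable probes over all mice were the leading probe of Ddx6 (SD 0.602), both of Ddx21 (0.506 and 0.314), ILMN_2944784 of Ddx27 (0.307) and ILMN_2747381 of Ddx24 (0.30).

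The promoters of the family were searched for 3 short motifs, which the selection did not use. In RefSeq windows of 300 bases around the start site, 41 of the 46 member genes were matched, in 52 windows. The ETS core was in 27 of these (51.9%), against 16.9% of all 32851 windows. Among tested genes it was in 23 of the 42 member windows (54.8%), against 29.8% of the 9439 windows of all named genes tested. This motif was searched after the Ddx10 and Ddx21 windows had been read, and both genes are counted here. The median GC content was 60.0% in member windows and 52.4% in all, and it was not taken for the windows of named genes tested. GAANNTTC, the core of a heat shock element, was in 5 member windows (9.62%, against 7.86% of all), those of Ddx17, Ddx19b, Ddx39b, Ddx42 and Dhx32. It was in 4 of the 42 windows of tested members (9.52%, against 5.67% of those of named genes tested), and it can share letters with the ETS core. The E-box CACGTG was in 7 member windows (13.5%, against 7.15% of all), but in 3 of the 42 windows of tested members (7.14%, against 10.2% of those of named genes tested). Neither was in the Ddx10 or Ddx21 windows, which says only that these letters were not there.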

How the data were processed

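Expression was measured in gastrocnemius of 12 mice, 6 labelled TOL and 6 INT by sample title and source name. The description of all 12 samples says intolerant and was not used. The authors read the arrays with GenomeStudio (no version stated), and their deposited table holds each probe's raw mean intensity on a linear scale, neither background subtracted nor normalized, with a detection p-value. A second deposited table by the authors holds processed intensity values, whose columns all have a median of 1.6 and about 31.0% of values below 0. It was used as an alternative, with values floored at 1 before log2, and its program was not named in the sources used.

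The intensities were processed in limma 3.58.1 (R 4.3.3) with neqc, which infers the background from the detection p-values, shifts signals by an offset of 16, applies quantile normalization and takes log2. Probes with detection p under 0.05 on at least 6 arrays were compared by lmFit and eBayes (variance trend on intensity) with Benjamini-Hochberg adjustment over 15570 probes. Of 45281 probes 34885 have 1 gene symbol in the platform annotation, 18 several and 10378 none, and only the first were named. Probes of 1 gene were kept apart and their levels were not compared. Single probes were also compared by exact two-sided permutation of 6 against 6 mice. Differences between a called probe and another probe of its gene are given with no test, since the first was chosen on the same mice. The fit was tested on simulated data first. Full values are given for member probes at adjusted p under 0.05, other tested probes of those genes, probes at nominal p of 0.05 or less and the 5 with the largest SD over the mice. Of each gene list, at most 4 probes at a nominal p of 0.05 or less are named. The members and lists were chosen with earlier results of these data known, among them a lower Ddx6 in TOL mice. Alternatives changed the background, offset, normalization, filter, weights, variance model, test and block, and left out each mouse. Slides and scan dates of the arrays are not given in the sources used here. The number of arrays limits the precision.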

Additional observations from a re-analysis of the deposited data

Results flagged for a closer look

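In 4 of the 98 groups of 6 mice formed by 49 member probes and 2 labels, 1 mouse stood apart from the others of its label by Dixon's criterion, which chance meets in about 1 of 20 groups. In Ddx24 probe ILMN_2747381, INT mouse 3 had 7.17 and the next lowest INT mouse 7.60. In Ddx6 probe ILMN_1248658, TOL mouse 3 had 6.55 and the next lowest TOL mouse 6.79. In Dhx35 probe ILMN_2861225, TOL mouse 11 had 4.98 and the next lowest TOL mouse 5.27. In Ddx49 probe ILMN_1245733, which was detected on only 6 arrays, TOL mouse 5 had 4.59 and the next highest TOL mouse 4.37.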

How the results depend on the processing

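The Ddx6 probe ILMN_2606667 kept its direction and an adjusted p under 0.05 in all 12 other settings (-1.17 to -0.72, limma adjusted p up to 0.0425) and without each mouse in turn. The Ddx21 call was lost with the methods' t-test (adjusted p of 0.134), and the Ddx10 call with it (0.119), with the RMA-type background (0.0542), the authors' value table (0.0726) and no intensity trend (0.0665). Called probes of other lists were lost under some settings too, Cnot11 under 2 of 12, Cnot4 under 6 and Upf1 under 1. The Ddx24 probe gained a call with array weights (-0.50, limma adjusted p of 0.0205).

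The count of 3 member probes lower at adjusted p under 0.05 was 1 with the methods' t-test (50 lower and 2 higher over all probes, against 123 and 6 in limma), and 1 to 4 without 1 mouse. The count of 1 member probe higher at a nominal p of 0.05 or less was 0 with median scaling, 3 without a filter, 2 with array weights and 1 to 3 without 1 mouse. The median log2 fold change of the members was -0.087 with median scaling, which moved the median of all probes to -0.067 and the share of lower probes among those at a nominal p of 0.05 or less to 89.4%, against 53.5%. The second Ddx21 probe, ILMN_2639272, was at -0.00068 with no background correction, -0.061 with median scaling and -0.0593 to 0.132 without 1 mouse. In the authors' value table the leading probe minus another probe of its gene differed between the labels by -1.08 for Ddx21 and by -0.65 and -0.41 for the dim Ddx6 probes ILMN_2758969 and ILMN_3114632, against -0.81, -0.93 and -0.81 with the offset of 16. With no background correction the Ddx21 difference was -0.45, and over all settings the dim Ddx10 probe ran from -1.28 to -0.115. Without 1 mouse the Ddx21 difference ran from -1.06 to -0.67. Filters, weights, trend and the t-test leave these differences unchanged by construction. The cause of the other changes was not tested.

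TOL and INT mice of the same number did not behave as pairs. The check compares only same-numbered mice, so it cannot show whether the numbers carry an order or session. Deviations of same-numbered mice correlated at -0.00717 to 0.148, and 0 of 6 TOL mice correlated best with their own number. With the replicate block 3 member probes were lower at the adjusted threshold and 2 were higher at a nominal p of 0.05 or less (114 lower and 10 higher over all probes, adjusted), and the Ddx21 difference between probes was -0.81. Signal near background limits the 9 member probes detected on 6 to 11 arrays, among them those of Ddx10, Ddx11, Ddx50 and Dhx37, 1 of Ddx49 and 2 of Ddx6.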
